A study of Homo sapiens with 8 samples.

Results

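The mRNAs of 9 stress granule proteins, G3BP1 among them, were examined for binding by the G3BP1 protein itself in HEK293T cells, a widely used line of human embryonic kidney origin. Each gene was taken as a stretch of 1 strand of hg19 (a gene window), and every deposited peak lying wholly inside such a window on that strand was counted as a member. The 9 windows span 14.3 to 80.1 kb and hold 5 of the 4346 deposited peaks: 3 of the 2925 in the PDS list and 2 of the 1421 in the Ctrl list. These genes were chosen with earlier results of the same lists known.

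The assay was seCLIP, in which UV light crosslinks RNA to protein, the protein is pulled down with its antibody (IP), and the recovered fragments are sequenced and set against an input library made without the antibody. PDS cells had received 20 µM PDS, a name that in work on guanine quadruplexes usually stands for the quadruplex-binding ligand pyridostatin, for 12 h before crosslinking, and Ctrl cells had received none. Each of the 4 groups (PDS IP, PDS input, Ctrl IP and Ctrl input) had 2 libraries. The authors deposited 1 peak list per condition with both replicates combined, so each peak has a single log2 fold of IP over input and a single −log10 p. No spread between replicates can be computed from such lists, and no difference between PDS and Ctrl below carries a test.

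Stress granules are cytoplasmic assemblies of mRNA and protein that form when translation initiation is blocked. G3BP1 and its paralog G3BP2 are their central scaffold: they bind RNA and, through an N-terminal dimerisation domain, partner proteins that favour or limit assembly. Guanine quadruplexes are four-stranded structures formed by guanine-rich nucleic acid, and the study asked which mRNA sites G3BP1 occupies with and without a ligand of these structures.

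Among the 9 mRNAs, G3BP1, G3BP2 and CAPRIN1 each had 1 peak in the PDS list, against 0 in the Ctrl list. PABPC1 had the opposite pattern, with 0 peaks in the PDS list and 2 in the Ctrl list. USP10, UBAP2L, ATXN2L, YBX1 and DDX3X had 0 peaks in both lists. No mRNA of the 9 had a peak in both. Over the lists as a whole, same-strand peaks were chained over gaps of up to 10000 nt into 1192 loci. Of these, 44.0% had PDS peaks only, 20.3% Ctrl peaks only and 35.7% both. Loci with PDS peaks only (525) thus outnumbered those with both (425), whereas loci with Ctrl peaks only (242) were fewer than those with both. All 5 member peaks were modestly enriched, with log2 folds of 3.15 to 3.65 in lists that start just above 3 and whose highest values are 6.31 (PDS) and 6.47 (Ctrl).

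**Figure D1:**
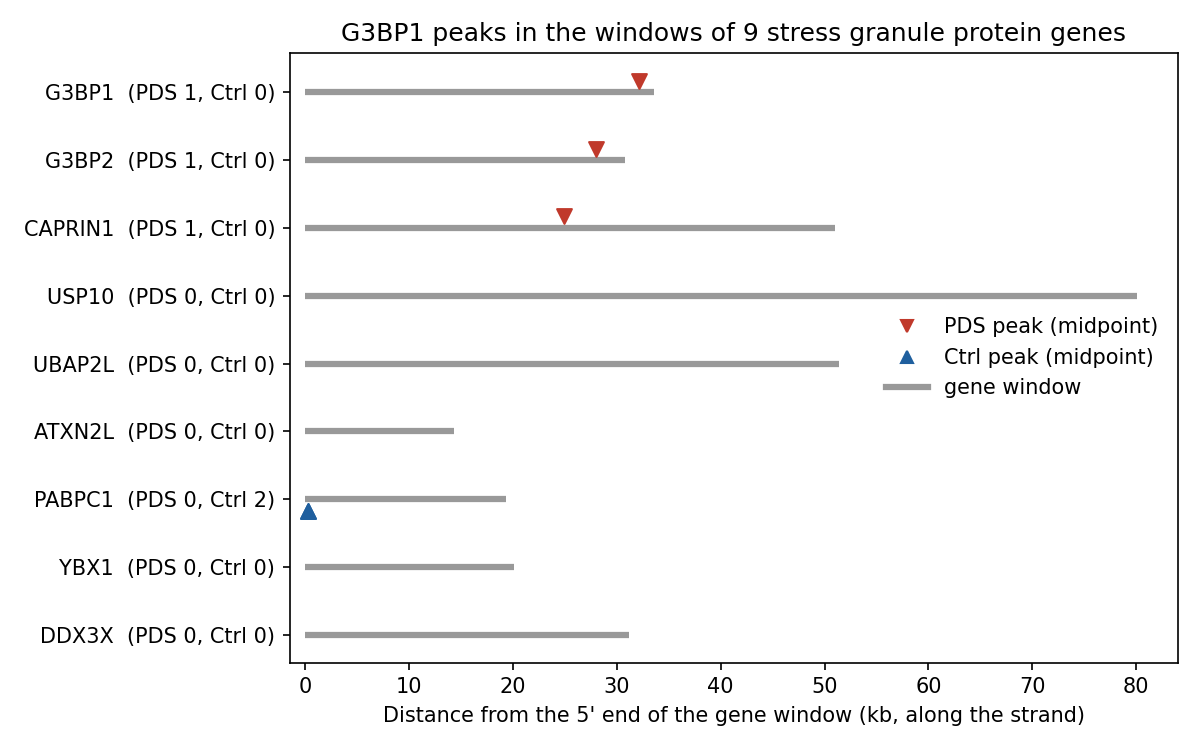
Position of every member peak along its gene window, in kb from the window's 5′ end (x axis), for the 9 genes (rows, with the number of PDS and Ctrl peaks). Grey bars are windows to scale, red triangles above them PDS peaks and blue triangles below them Ctrl peaks. The PDS peaks of G3BP1 and G3BP2 lie near the 3′ end of their windows, that of CAPRIN1 near the middle, and the 2 Ctrl peaks of PABPC1, which coincide at this scale, at the 5′ end. The G3BP1 and G3BP2 windows are shorter than the RefSeq genes, so their positions are within the window alone.

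The G3BP1 mRNA encodes the protein that was immunoprecipitated. Its only peak, in the PDS list, covered 98 nt of chromosome 5, plus strand, from 151183520 to 151183617 (hg19), inside a window from 151151400 to 151185000. It lay 32.1 kb from the 5′ end and 1.38 kb from the 3′ end of that window. Its log2 fold was 3.18, a 9.09-fold enrichment over input, and its −log10 p was 21.1. By fold the peak ranked 2400 of 2925 in the PDS list, whereas by −log10 p it ranked 1173. Among the 526 other PDS peaks within 0.1 of its log2 fold, the median −log10 p was 10.9 (quartiles 8.11 and 16.5), and 84.2% of them had a −log10 p at or below that of the G3BP1 peak. The G3BP1 site was thus weakly enriched for a PDS peak but had a high −log10 p for that enrichment. The Ctrl list held 0 peaks in the window, and its nearest peak on that strand was 1404 kb away.

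The paralog G3BP2 had the most enriched and the widest of the 3 PDS peaks. It covered 230 nt of chromosome 4, minus strand, from 76570604 to 76570833, within a window from 76567900 to 76598700. Only 8 PDS peaks, itself included, were 230 nt or wider (median of the list 63 nt). These are widths of deposited peaks and not of joined stretches: 40.5% of PDS peaks abut another peak, which the G3BP2 peak does not. The log2 fold was 3.65, a 12.6-fold enrichment, and the −log10 p was 22.9. Both values lay close to or above the middle of the PDS list, where the medians were 3.59 and 17.8. The peak lay 27.9 kb from the 5′ end of the window and 2.70 kb from its 3′ end. The midpoints of the G3BP1 and G3BP2 peaks were therefore 95.7% and 90.8% of the way along their windows. These positions hold for the windows and not for the whole genes: the windows are 33.6 kb (G3BP1) and 30.8 kb (G3BP2) long, whereas the RefSeq genes in GRCh38.p14 are 40.8 and 81.7 kb long, and at which end the windows fall short was not examined. The Ctrl list had 0 peaks in the G3BP2 window.

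CAPRIN1, USP10 and UBAP2L encode partners that bind G3BP1. CAPRIN1 is an RNA-binding protein that favours granule assembly, and USP10 is a deubiquitinase that competes with it for G3BP1 and limits assembly. The CAPRIN1 peak covered 80 nt of chromosome 11, plus strand, from 34098107 to 34098186, in a window from 34073200 to 34124200. It occurred in the PDS list alone, with a log2 fold of 3.15 (8.88-fold) and a −log10 p of 6.17. It was the weakest member peak by both measures, ranking 2491 by fold and 2845 by −log10 p among 2925 PDS peaks. In contrast to the G3BP1 peak, only 7.68% of the 547 other PDS peaks of like fold had a −log10 p as low as the CAPRIN1 peak or lower (median 10.8). It lay 24.9 kb from the 5′ end of the window and 26.0 kb from the 3′ end, at 48.9% of the length.

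The windows of USP10 (chromosome 16, plus strand, 80.1 kb) and UBAP2L (chromosome 1, plus strand, 51.4 kb) held 0 peaks on their strand in either list. The nearest same-strand peaks lay 1025 kb (PDS) and 1020 kb (Ctrl) outside the USP10 window. For UBAP2L, whose product is itself a stress granule nucleator, the nearest was 779.9 kb away in both lists. A peak has to pass the authors' thresholds to be listed, and the depth behind each list is unknown, so an empty window does not show that an mRNA was unbound.

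PABPC1, the main cytoplasmic poly(A)-binding protein, had the only member peaks of the Ctrl list. The PABPC1 mRNA is known to carry an A-rich stretch in its 5′ UTR through which the protein represses its own translation. The 2 Ctrl peaks abutted each other on chromosome 8, minus strand, from 101734163 to 101734174 (12 nt) and from 101734175 to 101734196 (22 nt), and together covered 34 nt. They began 204 nt from the 5′ end of the window, which runs from 101715100 to 101734400. The 12-nt peak had a log2 fold of 3.54 (11.6-fold) and a −log10 p of 9.55. The 22-nt peak had a log2 fold of 3.38 (10.4-fold) and a −log10 p of 9.03. Both were near or below the middle of the Ctrl list, which had a median log2 fold of 3.52 and a median −log10 p of 11.9. Both were also short, at or above the width of 3.87% and 7.67% of Ctrl peaks. Whether they are 1 site or 2 was not tested. The PDS list had 0 peaks in the PABPC1 window, and its nearest peak on that strand was 2676 kb from the site. Whether the site lies in the A-rich stretch was not examined, since an hg19 annotation was not used here.

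ATXN2L, the paralog of ataxin-2, YBX1, a cold-shock-domain protein that packages mRNA, and DDX3X, a DEAD-box helicase of translation initiation, are RNA-binding residents of stress granules. Their windows of 14.3, 20.1 and 31.2 kb held 0 peaks in the PDS list and 0 in the Ctrl list. Outside these windows the nearest same-strand peak was 116.9 kb from DDX3X (PDS), 137.7 kb from ATXN2L (Ctrl) and 842.6 kb from YBX1 (PDS). No empty window therefore had a peak lying just beyond its border on the gene's strand.

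**Figure D2:**
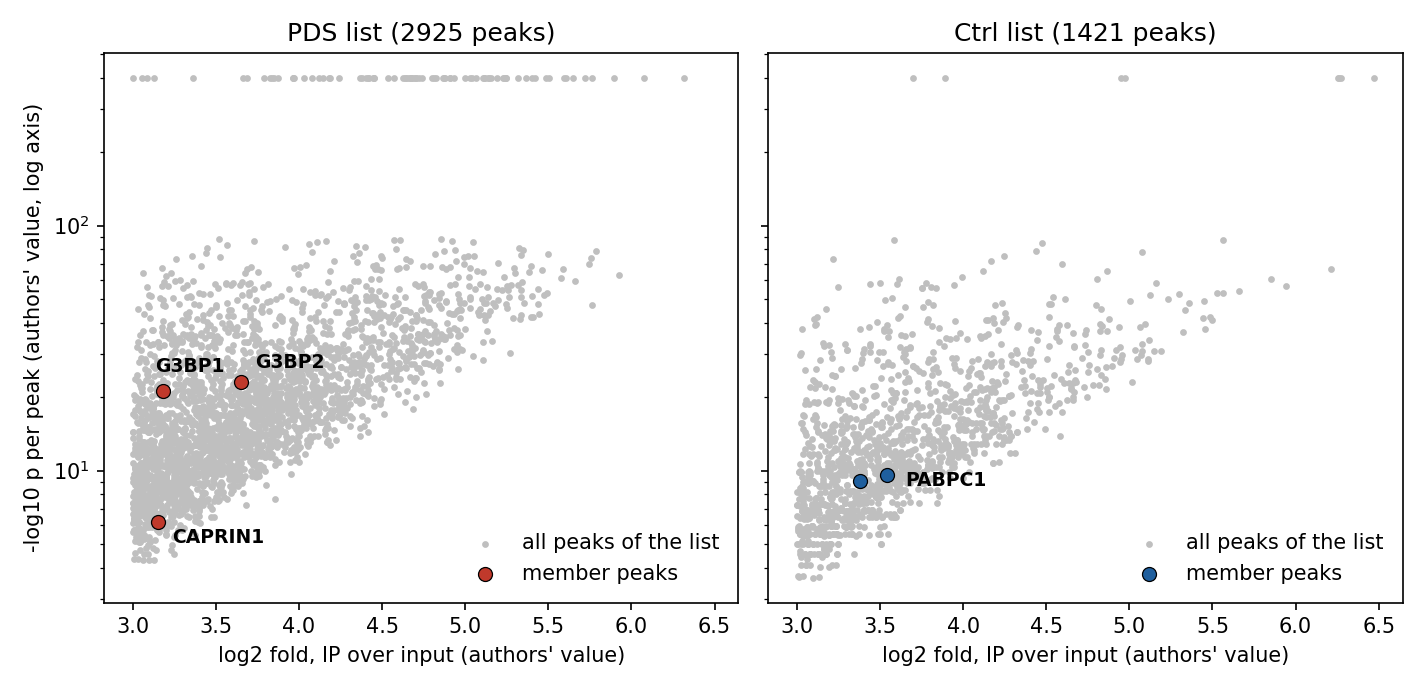
The authors' −log10 p (y axis, log scale) against their log2 fold of IP over input (x axis) for each peak of the PDS list (left) and the Ctrl list (right); grey points are all peaks and coloured points the member peaks, with the row of points at 400 being a stand-in value. The G3BP1 and G3BP2 peaks have −log10 p values of 21.1 and 22.9, the CAPRIN1 peak 6.17, and the 2 PABPC1 peaks 9.55 and 9.03.

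The peaks in the 4 windows that held any were set against the lists as a whole. Whether these peaks lie in exons was not examined. None of the 3 PDS member peaks overlapped a Ctrl peak, where 30.6% of all PDS peaks did so by at least 1 nt on the same strand. None of the 2 Ctrl member peaks, which abut each other, overlapped a PDS peak, where 51.5% of all Ctrl peaks did. Both results were fixed by the peak counts above, since no window held peaks of both lists on its strand. With only 5 peaks at 4 mRNAs, neither count sets the member peaks apart from the rest of the lists. At a stricter limit of a log2 fold of at least 4 with a −log10 p of at least 5, which 27.6% of PDS and 22.0% of Ctrl peaks met, 0 member peaks remained. The median log2 fold of the member peaks was 3.18 in the PDS list (n = 3) and 3.46 in the Ctrl list (n = 2), against medians of 3.59 and 3.52 over all peaks.

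Each window with a peak stood alone on its strand, with no further peak within 10000 nt of it. When same-strand peaks of both lists were chained over gaps of up to 10000 nt into loci, the 1192 loci included 525 with PDS peaks only (44.0%), 242 with Ctrl peaks only (20.3%) and 425 with both (35.7%). The 3 mRNAs found in the PDS list belonged to the commonest pattern of all, 1 PDS peak and 0 Ctrl peaks, which 346 loci (29.0%) showed. Within those 346 loci, the median log2 fold was 3.28 and the median −log10 p was 10.7. G3BP2 ranked 61 by fold, 27 by −log10 p and 2 by width. G3BP1 ranked 225 by fold and 36 by −log10 p, and CAPRIN1 ranked 246 and 321. The −log10 p of these 3 single-peak mRNAs ran from 6.17 (CAPRIN1) to 22.9 (G3BP2). The pattern of PABPC1, 2 Ctrl peaks and 0 PDS peaks, occurred in 38 loci (3.19%), of which 16 consisted of 2 abutting peaks. By the span from first to last base, 3 of the 38 were shorter than the PABPC1 site.

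**Figure D3:**
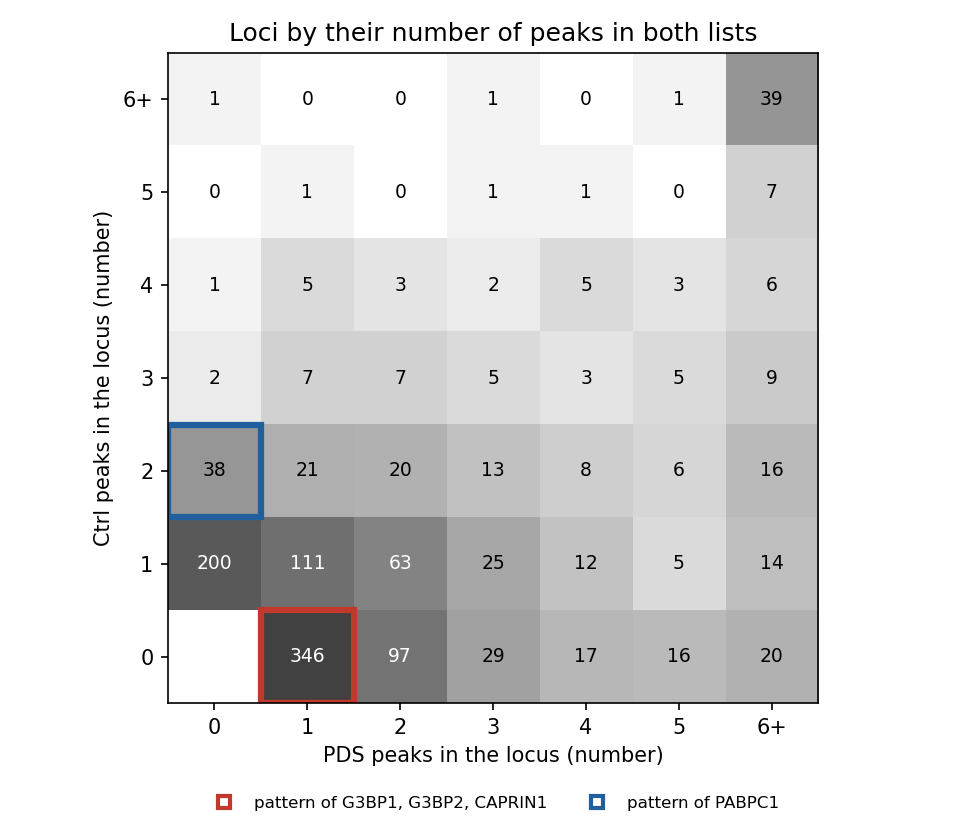
Number of loci (cell values, grey shade on a log scale) by their PDS peaks (x axis) and Ctrl peaks (y axis), with 6+ for 6 or more. The red frame marks the 346 loci that share the pattern of G3BP1, G3BP2 and CAPRIN1, and the blue frame the 38 loci that share that of PABPC1.

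The lists differ in ways that bear on every count above. The PDS list has 2925 peaks and a median −log10 p of 17.8, against 1421 peaks and 11.9 in the Ctrl list, and the part of this difference in the presence of G3BP1, G3BP2 and CAPRIN1 in the PDS list alone was not tested. If the PDS list is shortened to its 1421 most enriched peaks, whose log2 folds reach down to 3.62, the G3BP2 peak stays and the G3BP1 and CAPRIN1 peaks drop out. The Ctrl list was left whole in this comparison. Both PABPC1 peaks, with log2 folds of 3.54 and 3.38, also lie below 3.62. The shortening was by log2 fold alone. By −log10 p the G3BP2, G3BP1 and CAPRIN1 peaks ranked 1056, 1173 and 2845 in the PDS list. By that measure G3BP2 and G3BP1 lie within the first 1421 peaks and CAPRIN1 does not.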

How the data were processed

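Per the submitters' processing notes, cutadapt, UMI-tools and STAR were used on the seCLIP reads, with hg19 as the build. The peak caller, the filters and the merging of replicates were details not given in the sources used here. The deposited lists have no header. Their first value per peak was read as the authors' −log10 p, with 400 as a stand-in, and the second as the authors' log2 fold of IP over input. These readings rest on the range of the values and on the common eCLIP layout. Starts were taken as counted from 0 and are printed counted from 1.

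Depth is unknown, and no interval is given. The labels do not say whether replicates came from separate cultures. Counts, overlaps and distances were computed with pandas 2.3.3 and numpy 2.4.6 under python 3.11.15, and the overlap and merging code was tested on simulated peaks. All 9 genes are named, those without peaks included, with every member peak. The members and lists were chosen with earlier results of these data known. All 9 symbols were matched in RefSeq GRCh38.p14, on the same chromosome as the window. Its coordinates were not mixed with hg19, so exons, UTRs, sequences and other stress granule genes were not examined.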

Additional observations from a re-analysis of the deposited data

How the results depend on the processing

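Summed peak counts, overlap shares and median folds were recomputed under other settings, which gave 39 alternative values. A count or linear fold had to stay within 1.5 times its main value, and an overlap share at 0. By these limits 34 held and 5 did not. Many of the 34 could not have changed, so their number is no measure of robustness. Leaving out a gene with 0 peaks in a list cannot alter that list's median. A stricter overlap rule or a shorter PDS list cannot raise an overlap share of 0. Merging cannot join PDS member peaks that stand alone. The stricter threshold left 0 PDS and 0 Ctrl member peaks, so no overlap share or median exists there. The PDS list cut to the Ctrl length by log2 fold left 1 PDS member peak. Merging within 50 nt left 1 Ctrl region, as did merging abutting peaks alone, since the PABPC1 peaks join. Widening the windows by 1000 nt, and by 10000 nt or the length by which the RefSeq gene exceeds the window (both chosen after seeing the data), added 0 peaks; the G3BP1, G3BP2 and YBX1 windows are shorter than the RefSeq genes (33.6 against 40.8 kb, 30.8 against 81.7 kb and 20.1 against 21.4 kb). Leaving out 1 gene at a time gave median log2 folds of 3.17 to 3.42 in the PDS list. Without PABPC1 no Ctrl member peak is left. No paired analysis was possible because each list gives 1 value per peak for both replicates together, and for that reason no replicate could be left out. Unknown depth limits any statement on empty windows.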

Other observations

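The UBAP2L window, empty on the gene's own strand, held 1 peak per list on the opposite strand. The PDS peak spanned chromosome 1, minus strand, from 154192910 to 154193025 (hg19; 116 nt, log2 fold 3.77, −log10 p 17.4) and the Ctrl peak from 154192919 to 154193010 (92 nt, log2 fold 3.76, −log10 p 13.4). The Ctrl peak lies wholly inside the PDS peak. Both are within 425 nt of the 5′ border of the UBAP2L window. By strand they do not belong to the UBAP2L mRNA, and the transcript they lie on was not identified here. They were noticed after the data had been seen.

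Each list also had a minus-strand peak near ATXN2L, on chromosome 16. The PDS peak, from 28855312 to 28855340, lay 6.71 kb outside the window (log2 fold 4.24, −log10 p 28.8). The Ctrl peak, from 28855339 to 28855366, lay 6.74 kb outside it (log2 fold 3.29, −log10 p 10.6). These peaks overlap only at their ends.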
